A study of Mus musculus with 21 samples.

Results

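The blood-testis barrier junction genes are 9 genes that encode proteins of the junctions between neighbouring Sertoli cells: the claudins Cldn3, Cldn5 and Cldn11, together with Ocln, F11r, Tjp1, Gja1, Cdh2 and Ctnnb1. They were taken by gene symbol, 1 row each, from the 37620 genes of an RNA-seq table, and the rule uses no measured value. The libraries came from germ cells enriched out of testes of C57BL/6J (B6) males at 12 days post-partum (dpp), freed with collagenase and trypsin and labelled as spermatocytes. The table has 12 libraries in 4 groups of 3, each named by a sample number: 186wt, 343wt, 444wt or 456wt. All 4 share strain, age and preparation, no treatment or other genotype was sequenced, and the methods speak of 4 replicates. The labels do not say whether a number is 1 animal or a pool, or whether its 3 libraries share an RNA. The other 9 samples of the series, which measure protein binding to DNA and chromatin, were not used here.

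Sertoli cells nurse the germ cells of the seminiferous tubule, and near its base their membranes are sealed against each other by tight junctions that lie beside adherens, gap and desmosome-like junctions in a single belt. Claudins and occludin form the strands of the seal, F11r and other immunoglobulin-like proteins adhere across the gap, and scaffold proteins such as Tjp1 hold the strands to actin. Cadherins with their catenins, and connexin channels, share the belt, and in mice the barrier is assembled in the weeks before puberty, as the first germ cells enter meiosis. Since digestion leaves other testis cells among the germ cells, the labelled cell type was checked against markers. The 10 genes of a meiotic list were all present, with Sycp3, a protein of the chromosome axis in meiosis, at 73.1 ± 18.1 FPKM (fragments scaled to the length of the transcript and to the mapped fragments of the library; SD over 4 sample numbers). Sertoli markers were present as well, with Clu at 1844 ± 574, Aard at 580 ± 174 and Sox9, the transcription factor that sets Sertoli fate, at 44.4 ± 11.7 FPKM.

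On NCBI build 37, Cldn11 lies at chr3:31048868-31063246 on the plus strand with 3 exons, and F11r at chr1:173367666-173394734 on the plus strand. Gja1 is at chr10:56097106-56110225 on the plus strand, Ocln at chr13:101266462-101322673 and Tjp1 at chr7:72441051-72516125, both on the minus strand. Cldn5 is a gene of 1 exon at chr16:18776940-18778353 on the plus strand, and Cldn3 is at chr5:135462084-135463342 on the same strand. Cldn3 shares bases with Wbscr25 on the other strand, which averaged 0.0558 FPKM. Ctnnb1, at chr9:120838334-120869625 on the plus strand, shares bases with Ulk4 and 4930593C16Rik on the other strand, and the higher of these averaged 3.97 FPKM. These overlaps are of whole gene spans, and overlap of exons was not examined. The strand setting of the counting is not given in the sources used here. Where exons do share bases, reads of such partners may therefore not be told apart from those of the member.

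Stretches of 150 bases before the start of transcription are shown for 4 of the members whose levels moved together between the sample numbers. Another is shown for Tjp1, whose level moved far less. They are from RefSeq on build GRCm38.p6, read 5′ to 3′ on the strand of the gene, and capitals mark a CCAAT box (CCAAT, or ATTGG on the other strand) or the GATA motif AGATAA, or TTATCT on the other strand.
Cldn11 (chr3:31149770-31149919, plus strand): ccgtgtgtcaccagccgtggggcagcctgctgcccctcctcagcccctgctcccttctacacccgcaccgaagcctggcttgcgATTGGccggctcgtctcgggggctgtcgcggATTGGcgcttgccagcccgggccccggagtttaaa
F11r (chr1:171437411-171437560, plus strand): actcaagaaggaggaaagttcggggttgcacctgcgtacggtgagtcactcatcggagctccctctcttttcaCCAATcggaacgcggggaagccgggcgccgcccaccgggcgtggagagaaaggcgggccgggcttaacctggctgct
Ocln (chr13:100552499-100552648, minus strand): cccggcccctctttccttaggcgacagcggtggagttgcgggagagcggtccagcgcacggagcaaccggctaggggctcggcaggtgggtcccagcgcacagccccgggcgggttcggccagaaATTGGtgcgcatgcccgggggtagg
Gja1 (chr10:56377150-56377299, plus strand): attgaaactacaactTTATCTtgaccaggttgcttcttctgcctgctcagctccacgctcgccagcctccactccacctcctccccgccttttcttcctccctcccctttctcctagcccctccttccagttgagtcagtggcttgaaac
Tjp1 (chr7:65371245-65371394, minus strand): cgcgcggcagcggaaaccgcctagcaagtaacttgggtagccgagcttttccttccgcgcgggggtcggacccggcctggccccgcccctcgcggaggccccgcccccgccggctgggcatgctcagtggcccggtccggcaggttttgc
Cldn11 had a pair of CCAAT boxes, beginning 66 and 35 bases before the start, where F11r had 1 at 77 bases and Ocln 1 at 25 bases. Gja1 had no CCAAT box and a GATA motif 135 bases before the start, and Tjp1 had neither. CCAAT boxes were also present in members that did not move with these, as Ctnnb1, whose level hardly moved, had them at 123 and 244 bases before 1 of its starts and Cldn5, which moved otherwise, at 88 and 118 bases. In the 250 bases before the start, a CCAAT box was found in 33.9% and AGATAA in 9.99% of 32851 RefSeq windows of the same length. Within that length F11r had further CCAAT boxes at 158 and 250 bases, and a second RefSeq start of Ocln had none. Searches on both strands for a GC box (GGGCGG, in 32.7% of the windows) and a TATA box (TATAAA, in 12.4%) found 1 GC box each for F11r and Ocln, 2 for Tjp1 and no TATA box for these genes. None of the 4 motifs was shared by all of Cldn11, F11r, Ocln and Gja1. Cdh2, which moved with these, was not searched. A match is a description of letters and says nothing of binding.

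By level the genes ran from Cldn11, one of the most abundant transcripts of these libraries, to Cldn3, which was low. Cldn11, the claudin that mouse Sertoli cells need for the seal, averaged 269 ± 80.8 FPKM (SD, n = 4 sample numbers), above 99.1% of the genes that averaged 0.1 FPKM or more. Ctnnb1, the beta-catenin that links cadherins to actin, followed with 216 ± 2.63 FPKM. Gja1, the connexin of Sertoli gap junctions, averaged 112 ± 38.4 FPKM and F11r, an adhesion protein of tight junctions, 88.9 ± 23.8 FPKM. The remaining levels were 46.4 ± 2.26 FPKM for Tjp1, 30.7 ± 6.10 for the N-cadherin gene Cdh2, 24.7 ± 6.22 for Ocln, 5.71 ± 3.79 for Cldn5 and 2.85 ± 0.579 for Cldn3. Because FPKM are per length, genes can be set in order, and 7 of the 8 neighbouring pairs in this order stood the same way in all 4 sample numbers. With 4 values, the exact two-sided sign-flip permutation test of such a pair cannot go below p = 0.125, which each of the 7 reached (0.143 after Benjamini-Hochberg adjustment over 8 pairs). Cldn11 and Ctnnb1 did not keep an order, Cldn11 being higher in 2 of 4 sample numbers (exact p = 0.5).

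**Figure D1:**
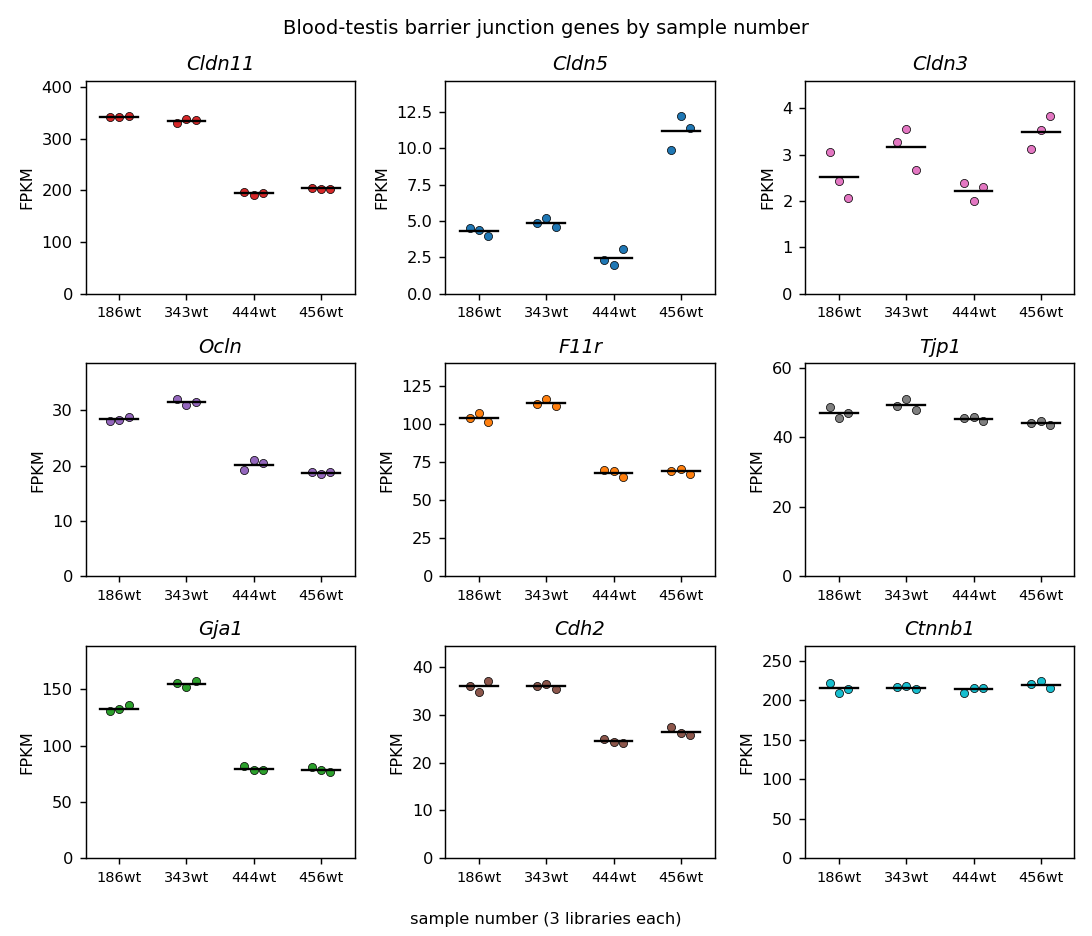
Each panel plots the FPKM of 1 gene (vertical axis, linear from 0) in the 3 libraries of each sample number (points), with their mean as a bar. Cldn11, Ocln, F11r, Gja1 and Cdh2 were high in 186wt and 343wt and low in 444wt and 456wt, Ctnnb1 stayed between 214 and 220 FPKM on average, and Cldn5 was highest in 456wt at 11.2 FPKM.

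The sample number was the only factor in the design, and 8 of the 9 genes differed between the numbers at an adjusted p-value under 0.05 (limma F-test on log2(FPKM + 0.1), Benjamini-Hochberg over 20795 genes). The same test called 58.2% of all genes, so a call alone says little of these genes. Over the 6 pairs of sample numbers, 37 of 54 combinations of gene and pair passed, beside 37.2% over all genes. The highest and lowest sample numbers were a median of 0.74 apart on the log2 scale over the 9 genes and 0.55 over all genes tested. Since the libraries of a number may be technical repeats, these p-values measure how far 4 samples stand apart against the spread between libraries.

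Among the strand proteins, Cldn11 was at 343, 341 and 343 FPKM in the libraries of 186wt, at 330.3, 339 and 336 in those of 343wt, at 198, 191 and 196 in those of 444wt and at 205, 204 and 202 in those of 456wt. Every library of 186wt and 343wt was thus above every library of 444wt and 456wt. The log2 difference of 444wt from 186wt was -0.82 ± 0.02 (SE), a level 0.568 times as high (adjusted p = 1.53e-11, limma), while 343wt and 186wt differed by -0.03 ± 0.02 (adjusted p = 0.143). A small difference between the lower numbers also passed, with 456wt higher than 444wt by 0.07 ± 0.02 (adjusted p = 0.00545). Ocln, the occludin of the strands, had 28.4 ± 0.442 FPKM in 186wt (SD of 3 libraries), 31.5 ± 0.587 in 343wt, 20.2 ± 0.957 in 444wt and 18.7 ± 0.214 in 456wt. Its libraries again fell apart without overlap into the same higher and lower numbers, and 456wt was below 343wt by a log2 difference of -0.75 ± 0.04 (adjusted p = 2.24e-08). Unlike Cldn11, Ocln passed in all 6 pairs, with 343wt above 186wt by 0.15 ± 0.04 (adjusted p = 0.00597) and 456wt below 444wt, the difference being -0.11 ± 0.04 (adjusted p = 0.0317, and 0.0514 with the replicate block for the library number).

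Both minor claudins went another way. Cldn5, best known from the junctions of blood vessels and also described in Sertoli and germ cells, was at 4.51, 4.39 and 3.98 FPKM in 186wt, 4.85, 5.24 and 4.61 in 343wt, 2.29, 2.01 and 3.07 in 444wt and 9.9, 12.2 and 11.4 in 456wt. All 3 libraries of 456wt were above every other library, and those of 444wt below every other. From 444wt to 456wt the log2 difference was 2.16 ± 0.14, a 4.46-fold step (adjusted p = 2.18e-07), and the range of Cldn5 between numbers was wider than that of 96.8% of all genes tested. Cldn3, which is expressed in newly formed Sertoli junctions, had 2.52 ± 0.505 FPKM in 186wt, 3.17 ± 0.454 in 343wt, 2.22 ± 0.199 in 444wt and 3.49 ± 0.351 in 456wt. The libraries of 186wt overlapped those of 343wt and 444wt for Cldn3, and 456wt was above 444wt by a log2 difference of 0.63 ± 0.15 (adjusted p = 0.00703). Its call over the 4 numbers (adjusted p = 0.0132) was the weakest of the 8 and ended without the second libraries, without 444wt or without 456wt (adjusted p = 0.195, 0.084 and 0.0719).

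F11r, the junctional adhesion molecule, had 104 ± 2.93 FPKM in 186wt, 114 ± 2.37 in 343wt, 68.1 ± 2.58 in 444wt and 69.1 ± 1.86 in 456wt. The lower pair of numbers could not be separated (log2 difference 0.02 ± 0.03, adjusted p = 0.655), and each lay well below both of the others. Between 444wt and 343wt the log2 difference of F11r was -0.74 ± 0.03, or 0.597 times the level (adjusted p = 1.06e-08). Tjp1, the zonula occludens scaffold, spanned far less, with 47.0 ± 1.55 FPKM in 186wt, 49.2 ± 1.67 in 343wt, 45.3 ± 0.595 in 444wt and 44.0 ± 0.607 in 456wt. The largest step of Tjp1 was a log2 difference of -0.16 ± 0.03 from 343wt to 456wt (adjusted p = 0.00149). Over the 4 numbers Tjp1 passed at an adjusted p = 0.00411, and this call ended without the first libraries (adjusted p = 0.057) or without 343wt (adjusted p = 0.0558).

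Gja1 had the widest range of the members that shared the high levels of 186wt and 343wt. Its libraries were at 131, 132 and 136 FPKM in 186wt, 156, 152 and 157 in 343wt, 82.4, 78.3 and 78.5 in 444wt and 81.2, 78.3 and 77.0 in 456wt. No library of the lower numbers came near the higher ones, and 343wt stood above 186wt by a log2 difference of 0.22 ± 0.03 (adjusted p = 5.98e-05). From 343wt to 456wt Gja1 fell to 0.509 times the level (log2 difference -0.97 ± 0.03, adjusted p = 3.3e-10). Cdh2, at chr18:16747386-16967755 on the minus strand, is the cadherin between Sertoli cells and between Sertoli and germ cells. Its levels were 35.9 ± 1.13 FPKM in 186wt, 35.9 ± 0.581 in 343wt, 24.4 ± 0.404 in 444wt and 26.5 ± 0.824 in 456wt. The higher numbers were level for Cdh2 (log2 difference 0.00 ± 0.03, adjusted p = 1), and 444wt was at 0.681 times 186wt (log2 difference -0.55 ± 0.03, adjusted p = 1.21e-07). Ctnnb1, its partner in the junction, which is also the transcriptional arm of Wnt signalling and used by nearly every cell type, was at 222, 209 and 214 FPKM in 186wt, 217, 218 and 214 in 343wt, 209, 216 and 215 in 444wt and 220.1, 224 and 215 in 456wt. The libraries of all 4 numbers overlapped, none of the 6 pairs passed, and the widest difference, 456wt against 444wt, was 0.04 ± 0.02 (adjusted p = 0.205). Only 0.135% of the genes tested had a smaller range than Ctnnb1.

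**Figure D2:**
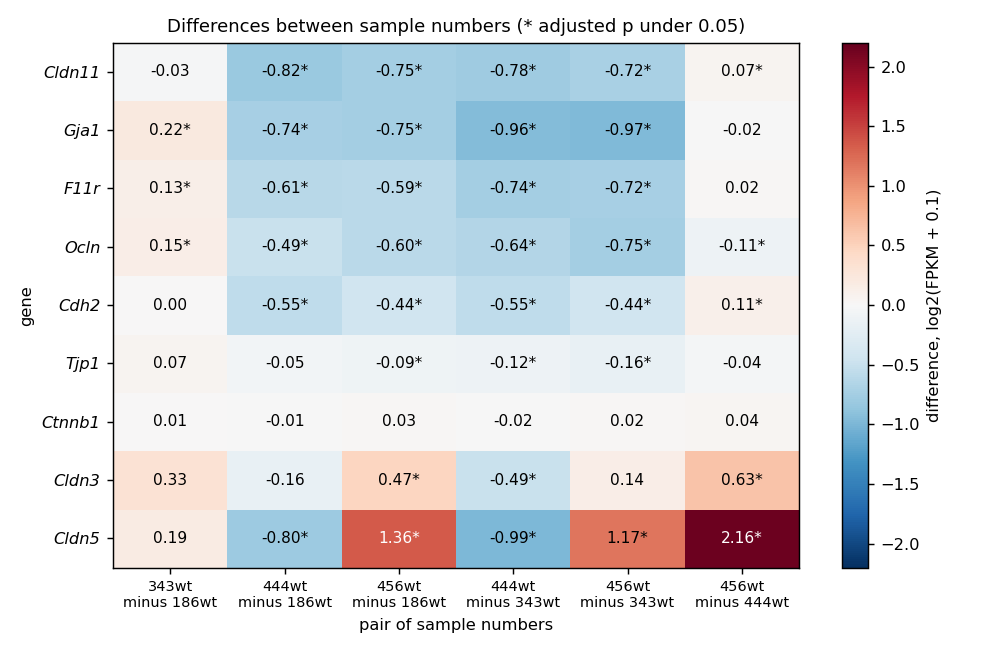
Each cell gives the difference of 1 gene (rows) between a pair of sample numbers (columns) in log2(FPKM + 0.1), with blue for lower and red for higher in the first-named number and a star at an adjusted p under 0.05 (limma). The 4 middle columns are blue for Cldn11, Gja1, F11r, Ocln and Cdh2, the row of Ctnnb1 has no star, and Cldn5 reaches 2.16 in the last column.

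Counted by pair and direction, all 8 members that differed between 444wt and 343wt were lower in 444wt, where 17.0% of all genes were lower. In 444wt against 186wt the count was 6 lower (16.1% of all genes lower) and none higher. Against 186wt, 456wt had 6 members lower (15.3% of all genes) and 2 higher, Cldn5 and Cldn3 (25.3% of all genes), and against 343wt it had 6 lower (13.9%) and 1 higher, Cldn5 (27.0%). Between the higher numbers 3 members, Ocln, F11r and Gja1, were higher in 343wt than in 186wt (11.7% of all genes). Between the lower numbers Cldn3, Cldn5, Cldn11 and Cdh2 were higher in 456wt (15.8%) and Ocln was lower (14.1%). These pairs share libraries, and 9 genes are few, so the counts are given beside the shares over all genes without a test of the list.

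Markers of several cell types moved with the sample number. Of 9 Sertoli symbols 8 were found, none was at 0 in any number, and their summed level was 4027 FPKM in 186wt, 4163 in 343wt, 2331 in 444wt and 2491 in 456wt. Each of the 8 was higher in 186wt and in 343wt than in either other number, among them Wt1, a transcription factor of Sertoli cells, at 127, 123, 88.2 and 84.2 FPKM in the order of the sample numbers. Amh, the anti-Müllerian hormone of immature Sertoli cells, was at 81.4, 94.0, 59.1 and 46.0 FPKM, and Fshr, the receptor for follicle-stimulating hormone, at 11.6, 11.3, 6.33 and 7.76 FPKM. Cst12 was at 723, 662, 380.0 and 422 FPKM and Dhh, a ligand that Sertoli cells send to neighbouring cells, at 61.6, 66.3, 45.8 and 36.8 FPKM. In such bulk libraries fewer cells of a type and less RNA per cell cannot be told apart, and the part of the Sertoli share in the differences of the members was not tested.

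**Figure D3:**
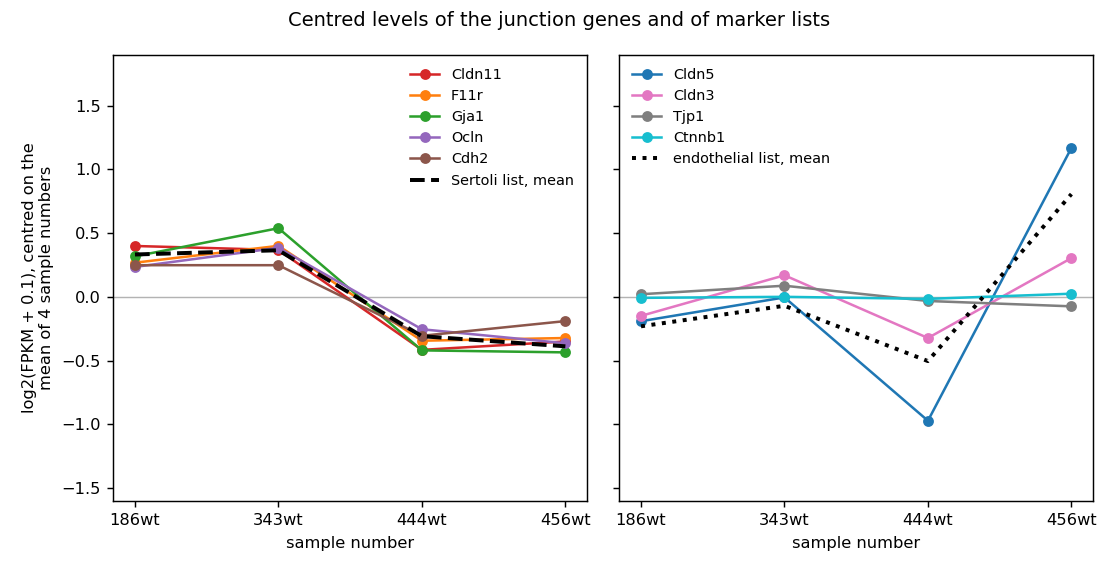
Levels by sample number (horizontal axis) are plotted as log2(FPKM + 0.1) centred on the mean of the 4 numbers (vertical axis), with lines for genes and thick broken lines for the mean of a marker list. Cldn11, F11r, Gja1, Ocln and Cdh2 run close to the Sertoli list (left). On the right, Cldn5 peaks with the endothelial list in 456wt, and Tjp1 and Ctnnb1 are nearly flat. Cldn3 is also highest in 456wt, but its levels in 456wt and 343wt could not be separated (adjusted p = 0.524, limma).

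Set against the mean log2 level of the Sertoli list, 5 members varied less than they did alone and 4 varied more, where 12.8% of all genes tested varied less. The range between numbers narrowed from 0.82 to 0.17 for Cldn11, from 0.75 to 0.15 for Ocln, from 0.74 to 0.13 for F11r, from 0.97 to 0.28 for Gja1 and from 0.55 to 0.32 for Cdh2. It widened from 0.16 to 0.63 for Tjp1, from 0.04 to 0.78 for Ctnnb1, from 0.63 to 1.17 for Cldn3 and from 2.14 to 2.22 for Cldn5. The mean of this list itself ranged over 0.75. Nearly flat genes such as Ctnnb1 and Tjp1 must therefore widen on subtraction and mirror the list. Their lower relative levels in 186wt and 343wt than in 444wt and 456wt thus say nothing of these 2 genes. With the meiotic list or the spermatogonial list as the reference, no member varied less, where 20.7% and 33.5% of all genes did. The means of these lists ranged over 0.76 and 0.61, so nearly flat members had to widen there too. This comparison was added after the values had been seen and carries no test.

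**Figure D4:**
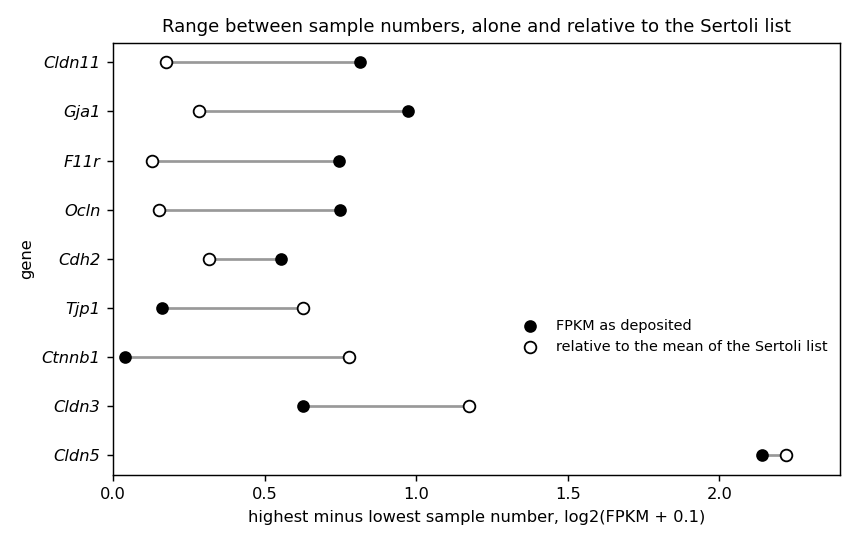
For each gene (rows) the filled point is the difference between the highest and lowest sample number in log2(FPKM + 0.1), and the open point is the same after subtraction of the mean of 8 Sertoli markers. The open points of Cldn11, Ocln and F11r lie under 0.2. Those of Ctnnb1 and Tjp1 lie above their filled points, as the subtraction requires for nearly flat genes.

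Cldn5 instead peaked in 456wt, as vessel markers did, and so did the sums of fibroblast, myoid and rete or ductal markers given below. All 8 endothelial symbols were found, none was at 0, and the sum was 33.2 FPKM in 186wt, 38.2 in 343wt, 28.6 in 444wt and 67.0 in 456wt. All 8 had their highest level in 456wt, such as Cdh5, the cadherin of vessel walls, at 6.95, 11.3, 6.44 and 14.1 FPKM and Pecam1 at 3.35, 3.63, 2.45 and 6.82 FPKM. Relative to the mean of this list the range of Cldn5 narrowed from 2.14 to 0.83. The other 8 members varied more than alone, where 9.8% of all genes varied less. The list mean itself ranged over 1.31, so genes of small range must widen when it is subtracted. Centred on the 4 numbers, this mean log2 level was -0.23, -0.07, -0.50 and 0.81, and that of the fibroblast list -0.68, 0.10, -0.53 and 1.12. The range of Cldn5 relative to the fibroblast list was not computed. The summed levels of fibroblast and peritubular myoid markers were also highest in 456wt, at 995 FPKM against 281 to 403 in the other numbers for fibroblasts (5 of 6 genes highest there, the exception being Dcn) and 1161 against 261 to 695 for myoid cells (6 of 6). The sums of macrophage and Leydig markers were highest in 343wt, at 37.8 and 110.5 FPKM, and lowest in 444wt, at 8.73 and 16.1 FPKM, although C1qa was highest and Cd163 lowest in 456wt. The 4 markers of rete or ductal epithelium were low, with sums of 1.56, 2.08, 3.19 and 5.31 FPKM in the order of the numbers. All 4 were highest in 456wt. The sums of the germ cell lists were 161 to 253 FPKM for spermatogonia and 408 to 667 FPKM for meiosis, both highest in 444wt, while the spermatid list summed to 2.38 to 4.30 FPKM with Prm2 at 0 throughout. The part of these cells in the level of Cldn5 was not tested.

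The profiles most like 2 of the members were looked up by the root mean square difference of centred log2 levels over the 4 numbers, among 14347 genes that averaged 1 FPKM or more. For Cldn5 the nearest were Tm4sf1 and Pdgfrl, each with a difference of 0.11, and Rgs5 with 0.12, and Tm4sf1 stood at 2.19, 2.86, 1.44 and 7.18 FPKM in the order of the numbers. The nearest member, Cldn3, had rank 432. For Gja1 the nearest were Kat2b at 0.026, 4930506M07Rik at 0.027 and Rps6ka2 at 0.029, and Rps6ka2 stood at 56.6, 63.0, 33.4 and 33.8 FPKM. F11r, Cldn11, Ocln and Cdh2 had ranks 134, 150, 223 and 671 for likeness to Gja1, so more than 100 genes outside the list followed Gja1 more closely than any member did. With 4 points that share libraries, likeness is a description and no evidence of a link.

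Within the claudin family, Cldn11 held 58.3 ± 2.50% of the summed FPKM of 27 claudin symbols, and this share moved only between 56.0% and 60.9% over the sample numbers. Next came Cldn26 with 24.4 ± 1.91% and Cldn25 with 8.77 ± 1.48%, symbols that RefSeq lists as older names of Tmem114 and Cldnd1, and Cldn12 with 3.68 ± 1.04%. Cldn5 held 1.36 ± 1.15% and Cldn3 0.654 ± 0.218%. Of the 27 symbols 8 had a mean of at least 1 FPKM and 10 were under 0.1 FPKM. Cldn26 was at 144, 143, 85.4 and 78.4 FPKM in the order of the numbers, near the profile of Cldn11, and passed (adjusted p = 3.3e-11). Cldn25 was at 41.9, 42.6, 33.0 and 38.0 FPKM (adjusted p = 0.00289), and Cldn12, a claudin found in many epithelia, was nearly level at 15.5, 15.6, 16.2 and 16.2 FPKM (adjusted p = 0.565). The widest range among the other claudins was that of Cldn20, at 0.560, 0.383, 0.740 and 0.0733 FPKM (adjusted p = 0.00133), the lowest of which is under the minimum that a gene's mean had to reach.

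Other proteins of the same belt were examined as 6 lists with 121 rows, of which 101 passed the minimum of 0.1 FPKM and 78, or 77.2%, differed between the sample numbers, beside 58.2% of all genes. Their median range, 0.56, was close to the 0.55 of all genes. Of the other claudins 6 of 14 tested passed, of other tight junction proteins 23 of 26, of other adherens and ectoplasmic specialization proteins 28 of 28, of other connexins 8 of 14, of desmosome proteins 3 of 7 and of barrier regulators 10 of 12.

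**Figure D5:**
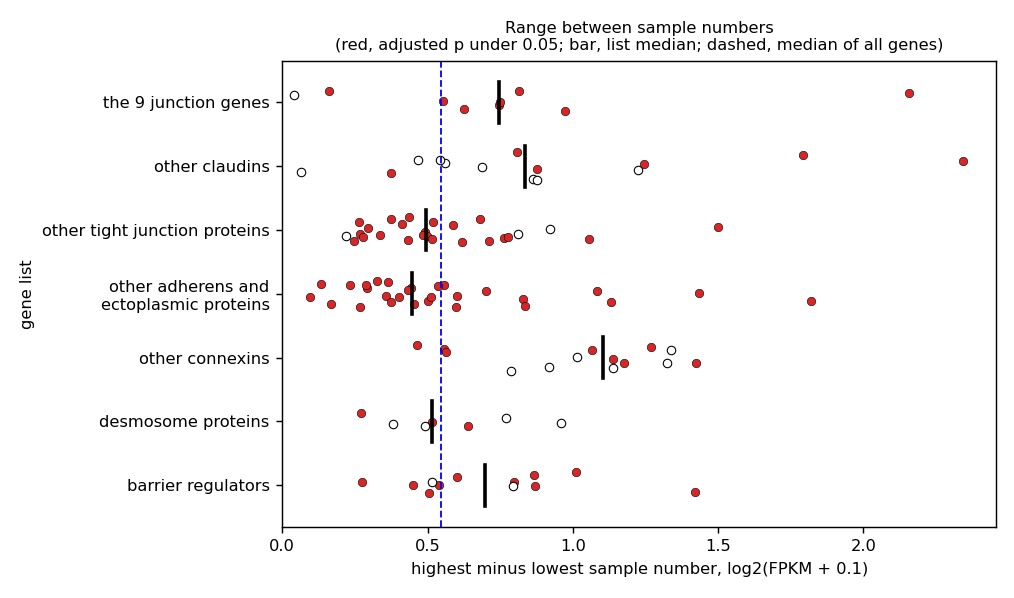
Each point is a gene, placed by the difference between its highest and lowest sample number in log2(FPKM + 0.1) (horizontal axis) in the row of its list, filled red at an adjusted p under 0.05 and otherwise open, with a bar at the list median and a dashed line at the 0.55 of all genes. The 9 junction genes run from 0.04 for Ctnnb1 to 2.16 for Cldn5 around a median of 0.74.

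Among the other tight junction proteins, Cgn, the cingulin that lies on the cytoplasmic face, was the highest at 128, 122, 87.4 and 79.7 FPKM (adjusted p = 3.52e-11). Jam3, an adhesion molecule between Sertoli and germ cells and a relative of F11r, was at 76.2, 72.7, 56.2 and 56.4 FPKM (adjusted p = 1.2e-07). Both were lower in 444wt and 456wt, as F11r was, while Sympk, which also works in the processing of mRNA ends, was at 57.9, 53.2, 64.6 and 59.1 FPKM (adjusted p = 0.0034). Esam, an adhesion molecule of endothelial cells, had the widest range in this list, at 3.67, 4.08, 2.90 and 8.38 FPKM (adjusted p = 3.09e-07), with its high in 456wt like Cldn5.

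Of the proteins at adherens junctions and the actin-rich ectoplasmic specialization, Itgb1, a beta-integrin, was at 111, 107, 105 and 136 FPKM (adjusted p = 1.29e-06) and Zyx, the focal adhesion protein zyxin, at 126, 134, 88.5 and 95.8 FPKM (adjusted p = 9.5e-10). Zyx was thus high where Cdh2 was high, and Itgb1 was highest in 456wt. Actr3, of the complex that branches actin filaments, stayed at 89.0, 93.5, 87.5 and 90.7 FPKM (adjusted p = 0.025). Actn1, an actin-bundling actinin, had the widest range, from 13.3 FPKM in 343wt to 47.1 in 456wt, with 24.1 in 186wt and 27.9 in 444wt (adjusted p = 9.69e-12), which is the order in which the sum of the myoid markers stood.

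Of the connexins named here, only Gja6 had both 186wt and 343wt above the other numbers, as Gja1 had. Gjc1, the next in level, was at 30.7, 27.9, 41.0 and 40.6 FPKM (adjusted p = 4.06e-07), higher where Gja1 was lower. Gja6 was at 15.0, 10.5, 6.57 and 9.84 FPKM (adjusted p = 2.23e-07), with 186wt highest and 343wt only slightly above 456wt. Gja4 and Gja5, connexins of arteries, were highest in 456wt, at 4.41 and 1.57 FPKM, and lowest in 444wt, at 2.07 and 0.530 FPKM (adjusted p = 3.79e-05 and 9.98e-05).

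Desmosome genes were low, with the plakophilins Pkp4 at 10.7, 10.7, 11.1 and 12.9 FPKM (adjusted p = 0.0246) and Pkp2 at 3.79, 4.35, 5.47 and 5.11 FPKM (adjusted p = 0.000625). Pkp3 averaged 0.582 FPKM, with 0.410 to 0.870 over the numbers (adjusted p = 0.202). Among genes that act on the barrier, Tnfrsf1a, a receptor for tumour necrosis factor, was at 45.3, 46.1, 30.3 and 38.0 FPKM (adjusted p = 2.71e-07) and Tgfbr1, a receptor for transforming growth factor beta, at 26.1, 22.1, 26.8 and 23.7 FPKM (adjusted p = 3.83e-05). Mmp2, a matrix metalloproteinase, ranged from 10.3 FPKM in 343wt to 27.6 in 456wt (adjusted p = 6.81e-10). Among these plakophilins and regulators, Tnfrsf1a was the one with both 186wt and 343wt above the other numbers.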

How the data were processed

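The authors took mRNA from total RNA of enriched B6 germ cells, sequenced it, aligned paired reads to the transcriptome of NCBI build 37 with Bowtie 0.12.9 and computed the deposited FPKM, rounded to 2 decimals, with RSEM 1.2.8 (versions per the submitters' processing notes). RSEM divides reads that fit several transcripts, and FPKM are relative to the library, so a large rise of some genes lowers the others. No column of values was left unmatched.

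Each sample number is the mean of its 3 libraries, and mean ± SD are over 4 numbers unless libraries are named. Genes averaging 0.1 FPKM or more were tested on log2(FPKM + 0.1) with limma 3.58.1 in R 4.3.3 (lmFit, eBayes with trend), with Benjamini-Hochberg adjustment over 20795 genes, and for pairs of numbers over all genes and 6 pairs together. A fold on this scale understates changes of low genes. The F-test scripts were tested on simulated data. Depth, estimated from the steps of low FPKM over 859 genes, was 13.1 to 18.4 M (mega) fragments per library (95% interval of the first library 14.5 to 14.7, counting scatter only). Other values and plots came from Python 3.11.15 with numpy 2.4.6, pandas 2.3.3, scipy 1.17.1 and matplotlib 3.10.9. Positions are from GENCODE M1. RefSeq windows of 8 members, all but Cdh2, were searched for motifs.

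The members and lists were chosen with earlier results of these data known. Genes named are the 9 members, the Sertoli list, the 3 highest and the most variable gene of each junction list, and the 3 nearest profiles of the 2 members with the widest range. Other markers were named after their values were seen. Alternatives were other pseudocounts, filters, a rescaling to the upper quartile, no variance trend, a block for the library number and leaving out libraries or sample numbers. Libraries of different numbers with the same library number had correlations of -0.0648 to 0.128 in their deviations. With other library numbers the correlations were -0.128 to 0.0835. All were small and the ranges overlap, so the main fit did not pair libraries, but a weak pairing is not excluded.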

Additional observations from a re-analysis of the deposited data

Results flagged for a closer look

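Of 39 genes compared over the 4 sample numbers, Pkp4, a plakophilin of desmosomes and adherens junctions, had 1 number apart from the rest: 456wt stood at 12.9 FPKM, and the other numbers lay between 10.7 and 11.1. The gap to the nearest number was 0.839 of the whole range, above Dixon's critical value for 4 samples. Chance flags about 1 group in 20, or 1.95 of 39, so 1 such gene is no more than that rate gives. Without 456wt the mean of Pkp4 was 10.8 FPKM in place of 11.4.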

How the results depend on the processing

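Over 14 alternatives the count of members that differed between sample numbers was 7 or 8, and that of other junction genes 57 to 78. The 37 combinations of member and pair became 34 without the variance trend and 30 to 32 without 1 library of each number. Without 1 sample number only 27 combinations are left, of which 16 to 19 passed (19 without 186wt, 18 without 343wt, 16 without 444wt, 17 without 456wt), so leaving out libraries or numbers gave 16 to 32. With the replicate block for the library number, 8 members, 36 combinations and 75 other junction genes passed, and the block ended 1 call of a member, that of Ocln between 456wt and 444wt (adjusted p = 0.0514). Range calls that ended were those of Tjp1 and Cldn3, as given above. Mean levels moved by less than 1 SD under every alternative tried, and 6 or 7 neighbours kept their order. For the runs without 1 sample number that limit on the mean is fixed by arithmetic and says nothing of stability. Counting error weighs most on low genes, among the members on Cldn3 and Cldn5.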
